A study of Rattus norvegicus with 63 samples.

Results

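The 6 arrays described here measured gene expression in the septum of rats that had long or short daily access to cocaine. They are the septum arrays labelled long access (3) and short access (3) out of 63 arrays of the study, and every probe set that is not a control was considered. Rats of the long access group could take cocaine intravenously for 6 h per day and rats of the short access group for 1 h per day, both at 0.25 mg per injection on a continuous schedule. Another 3 septum arrays came from drug-naive rats with no access (0 h per day), and these serve as a further level beside the comparison. The labels give 8 rats for each access group. The labels do not say whether an array held RNA of 1 rat or of several, so p measures only the spread between these arrays, which may be technical. Strain, sex, age and the number of sessions are not given in the sources used here.

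The septum lies between the lateral ventricles. Its lateral part consists mainly of GABA neurons that receive input from the hippocampus and project to the hypothalamus and the ventral midbrain, while its medial part holds cholinergic and GABA neurons that project to the hippocampus. In rats, long daily sessions of cocaine self-administration are known to lead to an escalation of intake that short sessions do not produce, and the comparison of long with short access asks what differs between animals that both took the drug.

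Signals are given on a log2 scale after each array was scaled to the same trimmed mean, with a floor at 5. Of 1263 probe sets, 736 had a mean signal of at least 100 over the 9 septum arrays and were tested, standing for 462 named genes. The 6 arrays were alike in median signal (153.9 to 155.2 with long access and 151.9 to 156.3 with short access) and in the share of probe sets at the floor (20.0% to 21.1% with long access and 20.1% to 20.8% with short access). The number of arrays limits the precision. A bulk array cannot tell fewer cells of a type from less RNA per cell.

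The label was checked against the other 5 brain regions of the study, where 437 of 858 probe sets (50.9%) differed by limma, 28.1% higher and 22.8% lower in the septum. At least 2-fold different were 73 (8.51%), of which 42 (4.9%) were higher and 31 (3.61%) lower. Of 5 septal neuron markers tested, 3 were higher in the septum: the vesicular GABA transporter Slc32a1 by 0.92 ± 0.05 (log2, SE), the GABA-synthesising enzyme Gad1 by 0.80 ± 0.11 and the vesicular acetylcholine transporter Slc18a3 by 0.67 ± 0.09. These 3 stood at 12.50, 11.67 and 8.68 in the septum and at 12.57, 11.79 and 8.82 in the nucleus accumbens, so that they set the septum apart from the mean of the other regions but were not higher than in that one. Somatostatin (Sst) was lower in the septum by -0.82 ± 0.08 and the neurotrophin receptor Ngfr did not differ detectably (0.13 ± 0.11). Against the other regions averaged, 0 of 7 striatal markers were higher and 5 were lower. That average includes the nucleus accumbens, where the dopamine receptor Drd1 stood at 10.76, against 7.12 in the septum. Drd1 was also above the septum in the amygdala (8.13) and the medial prefrontal cortex (7.41). It was below the septum in the lateral hypothalamus (6.27) and the ventral tegmental area (5.88). Of 5 hypothalamic markers, the peptide genes Avp, Oxt and Gal were lower and Nnat and Sncg higher. All 5 tested markers of choroid plexus and ependyma, the tissue that lines the ventricles, were higher in the septum against the other regions averaged. The differences were 2.46 for Igfbp2, 2.28 for Enpp2, 1.86 for Igf2, 1.47 for Sod3 and 1.30 for the serotonin receptor Htr2c. Htr2c stood at 8.71 in the septum and 8.69 in the nucleus accumbens, so for this gene these regions were about level. Igfbp2, Enpp2, Igf2 and Sod3 had a higher mean in the septum than in any other region. Against the other regions averaged, the highest 8 genes of the septum were Igfbp2, Enpp2, Tspo, Igf2, Mt2A, Adra2a, Kcnj10 and Sod3.

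Between long and short access 15 of 736 probe sets differed at an adjusted p under 0.05 (limma, Benjamini-Hochberg adjustment), which is 2.04%. Of these, 6 (0.815%) were higher with long access and 9 (1.22%) were lower. The higher ones belonged to the G protein subunit Gnb1 (2 probe sets), the neuropeptide Sst, the tyrosine kinase Ptk2b, the small heat shock protein Hspb1 and the growth factor receptor Fgfr1. The lower ones belonged to Igf2 (2 probe sets), Igfbp2, the GABA-B receptor subunit Gabbr1, the neurofilament Nefm, the syntaxin Stx7, the myelin protein Mag and 2 probe sets with no gene symbol. Differences were small: 3 of the 15 (0.408% of those tested) reached 1.5-fold, the median size over all probe sets tested was 0.15 on the log2 scale, and 95.1% were under 0.5. At an unadjusted p under 0.05 there were 115 probe sets (15.6%), 58 higher and 57 lower with long access. Signals of the long access arrays did not overlap those of the short access arrays in 149 probe sets (20.2%), among which were all 15 that passed.

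The count rested on every array of both groups. Without long access array 1, 2 or 3 it was 0, 0 and 2, and without short access array 1, 2 or 3 it was 0, 1 and 6. Where it was 0, between 87 and 103 probe sets had an unadjusted p under 0.05. All 15 kept their sign in each of these fits. Of the 15 probe sets, 11 carry a suffix by which the array's maker marks possible cross-hybridisation, and with such probe sets left out 3 of the other 4 passed.

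**Figure D1:**
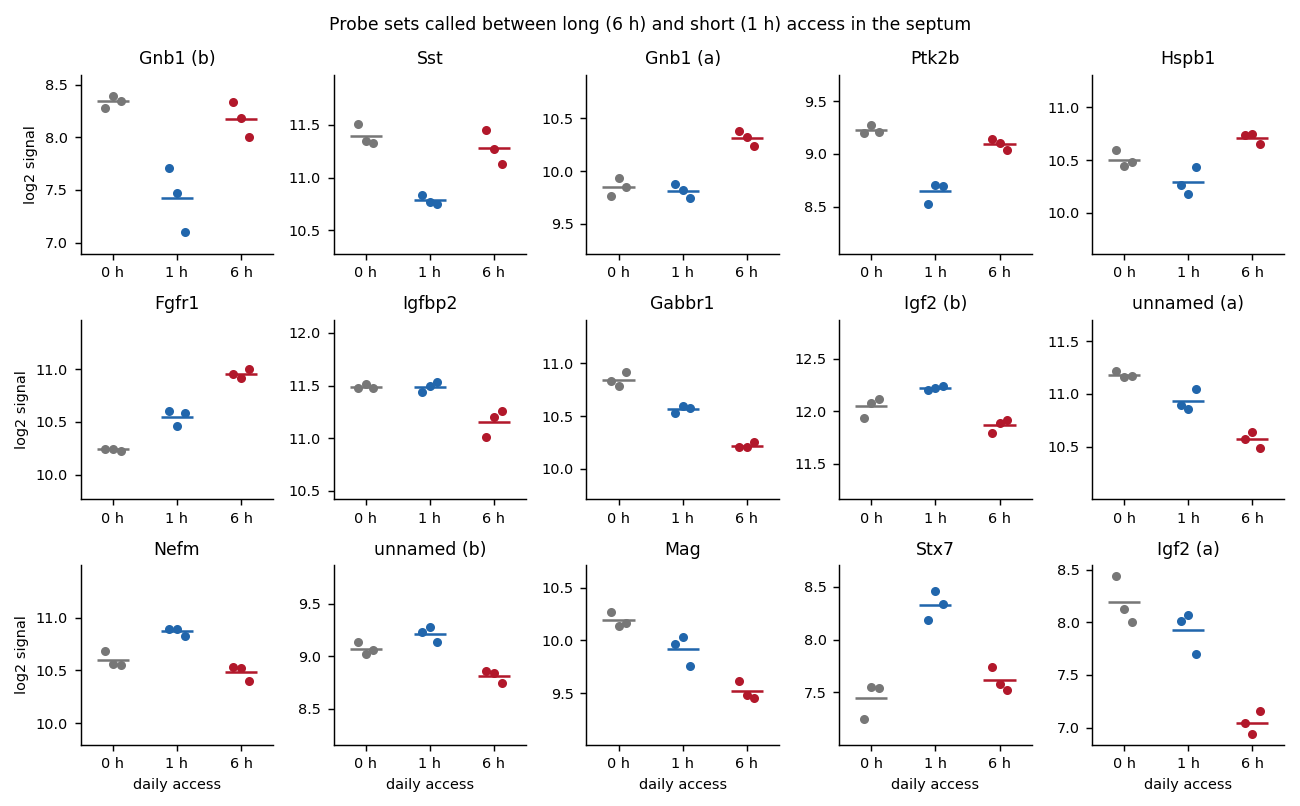
Log2 signal (vertical axis, each panel with its own range of equal width) of the 15 probe sets that passed between long and short access, by daily access of 0, 1 and 6 h. Points are arrays (3 per group), bars are group means, and unnamed marks the 2 probe sets with no gene symbol; in every panel the 3 arrays with 6 h lie entirely above or entirely below the 3 with 1 h.

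Measures of the arrays and of their tissue were compared between long and short access, and 0 of 15 passed after adjustment. The 9 bacterial spike-in controls, RNAs added during preparation, averaged 11.13 ± 0.06 in long access arrays and 10.83 ± 0.13 in short access arrays (log2, SD, n = 3 each). The log2 3' to 5' ratio of actin, a sign of RNA degradation when high, was 0.06, -0.02 and -0.03 in the long access arrays and 0.25, 0.09 and 0.12 in the short access arrays. Neither measure overlapped between the groups (p = 0.1, two-sided exact permutation test, which 3 arrays per group cannot go below, with 0.25 once adjusted over 15 measures). A covariate for the spike-in signal left 1 probe set past the threshold, which was not among the 15, and one for the actin ratio left 0, with 61 and 74 at an unadjusted p under 0.05. The 15 kept their sign with each covariate, and the part of these measures in the differences was not tested. The Gapdh ratio (0.34 against 0.43, exact p = 0.2) and the antisense controls (6.39 against 6.26, exact p = 0.5) overlapped between long and short access.

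**Figure D2:**
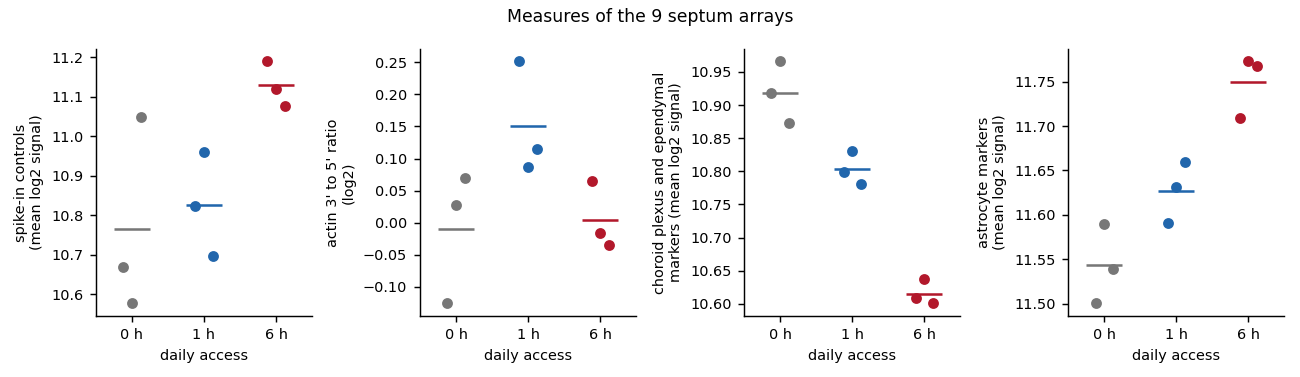
Measures of the 9 septum arrays by daily access of 0, 1 and 6 h: mean log2 signal of the spike-in controls, log2 3' to 5' ratio of actin, and mean log2 signal of the choroid plexus and ependymal markers and of the astrocyte markers. Points are arrays and bars are group means. The 4 are from 15 measures compared. Of the others, the vessel and meningeal list and the septal neuron list also did not overlap between 6 h and 1 h, and the rest did. In all 4 panels the arrays with 6 h do not overlap those with 1 h, and in the choroid plexus panel they are the lowest of the 9, between 10.60 and 10.64. The mean of that panel includes Igf2 and Igfbp2, 2 of its 5 members, which passed as lower in these same arrays.

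Somatostatin is a peptide that inhibits neighbouring neurons and is made by subsets of GABA neurons, including cells of the lateral septum. Its transcript stood at 11.46, 11.27 and 11.13 in the long access arrays and at 10.84, 10.77 and 10.75 in the short access arrays. All 3 long access arrays were higher, 1.42-fold on average (0.50 ± 0.09, log2, SE, limma adjusted p = 0.0222). The no access arrays stood at 11.51, 11.35 and 11.33, so that short access was the group that lay apart: it was lower than no access by -0.61 (adjusted p = 0.00485), while long access differed from no access by -0.11 (adjusted p = 0.531). A further probe set of Sst gave 9.76, 9.86 and 9.88 with long access and 9.37, 9.49 and 9.43 with short access, a difference of 0.40 ± 0.10 that missed the threshold (adjusted p = 0.0547).

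Of 9 neuropeptide genes tested, Sst passed and the other 8 did not, and 5 had an unadjusted p under 0.05, all of them higher with long access. Over all 462 genes, each by its brightest probe set, 4 passed as higher (0.866%) and 4 as lower (0.866%), and 65 (14.1%) had an unadjusted p under 0.05. The median of the list was 0.25, beside 0.01 over all 462 genes, and 6 of 9 lay above 0, beside 240 of the 462. The summed signal of the 9 was 7077 to 7519 with long access and 5786 to 6013 with short access. That sum includes Sst, which passed in these same arrays, and was not compared without Sst. With no access it was 7186 to 7984, which overlapped long access and lay above short access. Tac1, which encodes substance P, was at 8.88, 8.88 and 8.69 with long access and at 8.54, 8.55 and 8.23 with short access. A dimmer Tac1 probe set, under the filter in the septum, lay the other way, at 6.09 ± 0.34 with long access and 6.53 ± 0.18 with short access (SD, n = 3 each), and its groups overlapped. Npy differed by 0.38 ± 0.16, Vgf by 0.23 ± 0.07 and the enkephalin precursor Penk by 0.25 ± 0.11, with adjusted p between 0.145 and 0.303. Against these, vasopressin (Avp) was at -0.53 ± 0.27 and the dynorphin precursor Pdyn at -0.47 ± 0.27, neither of which passed. With no access Tac1 averaged 9.05, Penk 9.83 and Npy 8.71, nearer to long than to short access. Vgf averaged 10.88 with no access, nearer to short access. Among 7 peptide receptor genes 0 passed; the somatostatin receptor Sstr4 differed by 0.63 ± 0.27 (adjusted p = 0.303) and its groups overlapped.

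Gnb1, the beta-1 subunit shared by many heterotrimeric G proteins, was higher with long access in all 5 of its probe sets, of which 2 passed. Its first probe set gave 10.38, 10.33 and 10.23 with long access and 9.87, 9.82 and 9.75 with short access, 1.42-fold higher (0.50 ± 0.08, adjusted p = 0.0222). The second gave 8.34, 8.18 and 8.00 with long access and 7.71, 7.47 and 7.10 with short access, 1.68-fold higher (0.75 ± 0.17, adjusted p = 0.0421). The other 3 probe sets differed by 0.46 ± 0.17, 0.33 ± 0.12 and 0.27 ± 0.15 and did not pass. The first 2 disagree on the no access level: it averaged 9.85 for the first, near short access, and 8.34 for the second, near long access. Among 29 signalling genes (calcium, cyclic AMP and protein kinase C) Gnb1 was the 1 that passed, and the median of the list was -0.02. The G protein subunit Gnao1 (-0.30 ± 0.09) and the cyclic AMP phosphodiesterase Pde4a (-0.31 ± 0.12) were at lower values and the kinase Itpka at a higher one (0.21 ± 0.09), without passing.

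Ptk2b, a calcium-activated relative of focal adhesion kinase also called Pyk2, was at 9.14, 9.11 and 9.04 with long access and 8.53, 8.71 and 8.70 with short access. The long access arrays were all higher, 1.37-fold (0.45 ± 0.10, adjusted p = 0.0306). With no access it averaged 9.23, above short access (-0.59 for short minus no access, adjusted p = 0.0106). A further probe set differed by 0.22 ± 0.09 without passing, and none of the 10 kinase genes passed by its brightest probe set.

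Fgfr1, a receptor for fibroblast growth factors, was ordered by the hours of access in 1 of its 2 probe sets. The mean log2 signal of that one was 10.24 ± 0.01 at 0 h, 10.55 ± 0.08 at 1 h and 10.96 ± 0.04 at 6 h per day (SD, n = 3 each), and the 3 groups did not overlap. Long access was 1.33-fold above short access (0.41 ± 0.07, adjusted p = 0.0222) and short access was above no access by 0.31 (adjusted p = 0.0427). The other Fgfr1 probe set did not have this order: it averaged 10.47 at 0 h, 10.30 at 1 h and 10.36 at 6 h, with 0.05 ± 0.11 between long and short access, and did not pass.

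Insulin-like growth factor 2 (Igf2) and its binding protein Igfbp2 are made in adult brain mainly by choroid plexus and meninges, and both were lower with long access. The brighter Igf2 probe set stood at 11.79, 11.89 and 11.92 with long access and 12.20, 12.22 and 12.24 with short access, 1.28-fold lower (-0.35 ± 0.07, adjusted p = 0.0269). The dimmer one stood at 7.04, 6.94 and 7.16 with long access and 8.02, 8.07 and 7.70 with short access, 1.84-fold lower (-0.88 ± 0.17, adjusted p = 0.0269), the largest difference among the 15. The groups did not overlap for either probe set. A pair of further Igf2 probe sets did not pass, at -0.07 ± 0.17 and 0.18 ± 0.29. Igfbp2 stood at 11.02, 11.20 and 11.26 with long access and 11.44, 11.50 and 11.53 with short access, 1.26-fold lower (-0.33 ± 0.07, adjusted p = 0.0421). With no access Igfbp2 averaged 11.49, at the level of short access. Its other probe set was at -0.19 ± 0.09 (adjusted p = 0.314). Of 23 growth factor and receptor genes 1 passed as higher (Fgfr1) and 2 as lower (Igf2 and Igfbp2), with a list median of -0.10, beside 0.866% of all genes in each direction. The platelet-derived factor Pdgfa (-0.25 ± 0.07, adjusted p = 0.139) came next without passing, and Bdnf was at -0.68 ± 0.36 with overlapping groups.

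Igf2 and Igfbp2 are also 2 of the 5 tested markers of choroid plexus and ependyma. The summed signal of the 5 was 11154 to 11231 in long access arrays and 12901 to 13386 in short access arrays, with no access at 12761 to 13785. Their mean log2 signal was 10.62 ± 0.02 with long access and 10.80 ± 0.03 with short access (exact p = 0.1, the smallest possible, 0.25 after adjustment). All 5 lay below 0 for long minus short, but Sod3 (-0.16 ± 0.10), Enpp2 (-0.07 ± 0.10) and Htr2c (-0.03) did not pass. Without Igf2 and Igfbp2 the groups overlapped: the summed signal of the other 3 was 4873 to 5612 with long access and 5103 to 5723 with short access. Of the 14 markers listed 6 were matched to a probe set, the channel Kcnj13 was too dim to be tested, and transthyretin (Ttr), the most abundant transcript of choroid plexus, was not analysed here. The 4 vessel and meningeal markers, Igf2 among them, summed to 5892 to 6201 with long access and 6868 to 7115 with short access. The mean log2 signal of the 4 was 9.40 ± 0.08 with long access and 9.61 ± 0.07 with short access (exact p = 0.1, 0.25 after adjustment). Without Igf2 the other 3 summed to 2325 to 2350 with long access and 2090 to 2342 with short access, with overlap. That sum is led by Slc2a1, the brightest of the 3. The mean log2 signal of the 3 lay the other way, at 8.57 ± 0.09 with long access and 8.75 ± 0.09 with short access. Among these 3 the transporter gene Slc6a13, found in meninges, was at -0.30 ± 0.18 and Pdgfrb at -0.40 ± 0.43. The glucose transporter Slc2a1 of vessels was at 0.18 ± 0.09, and none of the 3 passed. How far the amount of this tissue in the dissections enters the differences of Igf2 and Igfbp2 was not tested.

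Hspb1, a small heat shock protein that protects cells under stress and is made by neurons and glia, was higher in all 3 of its probe sets, of which 1 passed. That one stood at 10.73, 10.75 and 10.65 with long access and 10.27, 10.17 and 10.44 with short access, 1.34-fold higher (0.42 ± 0.08, adjusted p = 0.0269). The other 2 differed by 0.45 ± 0.12 and 0.40 ± 0.14 (adjusted p 0.104 and 0.188), and in all 3 the groups did not overlap. With no access the first probe set averaged 10.50, between the cocaine groups. The one at 0.45 averaged 8.95 with no access, near short access (8.91). The one at 0.40 stood at 8.75, 8.39 and 8.59 with no access, also near short access (8.70 on average). Of 18 stress, apoptosis and antioxidant genes Hspb1 was the 1 that passed, and 12 of 18 lay above 0 with a median of 0.08. Sod2 was at 0.53 ± 0.33, Bcl2 at 0.35 ± 0.20 and Bax at 0.16 ± 0.07, none of which passed.

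Promoters were read for the genes that passed to show what lies before their start sites. RefSeq's table for the GRCr8 build held 8 of the 11 genes, as 250 bases before the start. Heat shock elements are built from inverted GAA repeats, and the form searched, GAANNTTC on both strands, is in 7.02% of 27457 rat promoters of this length. The Hspb1 promoter holds 2 of them, the first 129 bases before the start, and was the 1 of the 8 with any. In the sequence printed here its heat shock elements and its GC boxes (GGGCGG on either strand, in 32.4% of promoters and in 4 of the 8) are in capitals. The Sst promoter is shown beside it as that of the peptide gene that passed, and holds neither in this stretch. The full cyclic AMP element TGACGTCA (1.70% of promoters) and the AP-1 site TGANTCA (6.36%) were in 0 of the 8 within these 250 bases, and TATAAA (13.1%) in 1, that of Gnb1. The result for the cyclic AMP element depends on where the table sets the start: over its whole window of 300 bases, which adds 50 after the start, TGACGTCA was in 1.91% of promoters and in 1 of the 8, that of Sst, at base 3 after the start and so just beyond the stretch printed here. A match is a string of letters and not a bound site.
Hspb1 (chr12:26432302-26432551, minus strand): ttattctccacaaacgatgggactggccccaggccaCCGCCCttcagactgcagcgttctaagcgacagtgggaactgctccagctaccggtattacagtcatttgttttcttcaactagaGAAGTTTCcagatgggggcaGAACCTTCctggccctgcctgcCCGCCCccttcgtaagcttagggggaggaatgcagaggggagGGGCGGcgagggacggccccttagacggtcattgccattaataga
Sst (chr11:90461296-90461545, plus strand): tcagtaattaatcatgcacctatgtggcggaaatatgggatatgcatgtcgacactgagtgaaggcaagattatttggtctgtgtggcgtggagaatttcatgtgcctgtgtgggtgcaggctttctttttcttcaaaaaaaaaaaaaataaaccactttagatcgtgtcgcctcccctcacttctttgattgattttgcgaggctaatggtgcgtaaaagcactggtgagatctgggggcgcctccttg

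Gabbr1 encodes the subunit of the metabotropic GABA-B receptor that binds GABA. The probe set that passed stood at 10.20, 10.20 and 10.26 with long access and at 10.53, 10.60 and 10.58 with short access, 1.27-fold lower (-0.35 ± 0.07, adjusted p = 0.0269). With no access it averaged 10.85, so the signal was highest with 0 h and lowest with 6 h, and long access was below no access by -0.63 (adjusted p = 0.000224). The other 4 probe sets annotated to Gabbr1 did not pass. Those at -0.23 ± 0.07 and -0.28 ± 0.10 had groups that did not overlap, while those at -0.08 ± 0.22 and 0.17 ± 0.25 had groups that did. Of 15 genes of GABA neurons and receptors 0 passed by their brightest probe set, with a median of -0.02. The receptor subunits Gabra4 (0.51 ± 0.29), Gabrr1 (-0.39 ± 0.21) and Gabra5 (-0.30 ± 0.18) were on both sides of 0. Slc32a1, which fills vesicles with GABA, was at 12.37, 12.55 and 12.47 with long access and 12.44, 12.45 and 12.39 with short access.

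Nefm, the medium neurofilament of the axonal cytoskeleton, stood at 10.53, 10.52 and 10.40 with long access and 10.89, 10.89 and 10.83 with short access. It was 1.31-fold lower with long access (-0.39 ± 0.07, adjusted p = 0.0269), and with no access it averaged 10.60. The other neurofilaments were at -0.21 ± 0.08 (Nefh, adjusted p = 0.208) and -0.14 ± 0.08 (Nefl, adjusted p = 0.436). Of 9 cytoskeletal genes Nefm was the 1 that passed, the median was -0.14 and 1 lay above 0.

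Stx7, a syntaxin of endosomes, stood at 7.74, 7.58 and 7.52 with long access and 8.19, 8.46 and 8.34 with short access, 1.64-fold lower (-0.72 ± 0.15, adjusted p = 0.0306). No access averaged 7.45, near long access, and short access exceeded it by 0.88 (adjusted p = 0.0106). None of 17 synaptic vesicle and release genes passed, and the closest were Sncb (-0.37 ± 0.14, adjusted p = 0.214) and Syt11 (0.20 ± 0.09).

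Mag, a glycoprotein of the myelin sheath, stood at 9.61, 9.48 and 9.45 with long access and 9.97, 10.03 and 9.76 with short access, 1.32-fold lower (-0.41 ± 0.09, adjusted p = 0.0438). With no access it averaged 10.19, and long access was below that by -0.68 (adjusted p = 0.000944). Its other probe sets, which are brighter, were at 0.07 ± 0.07 and -0.02 ± 0.09, and none of the remaining oligodendrocyte markers passed: Mbp was at 0.17 ± 0.08, Mog at 0.07 and Sox10 at -0.20. The 6 oligodendrocyte markers summed to 34483 to 38600 with long access and 33751 to 35771 with short access. The 2 probe sets with no gene symbol were lower by -0.36 ± 0.08 (adjusted p = 0.0296) and -0.40 ± 0.09 (adjusted p = 0.048). The first is named after the same source sequence as the Gabbr1 probe sets at -0.08 and 0.17, and may belong to that gene. It averaged 10.57 with long, 10.93 with short and 11.18 with no access, the order of the Gabbr1 probe set that passed.

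**Figure D3:**
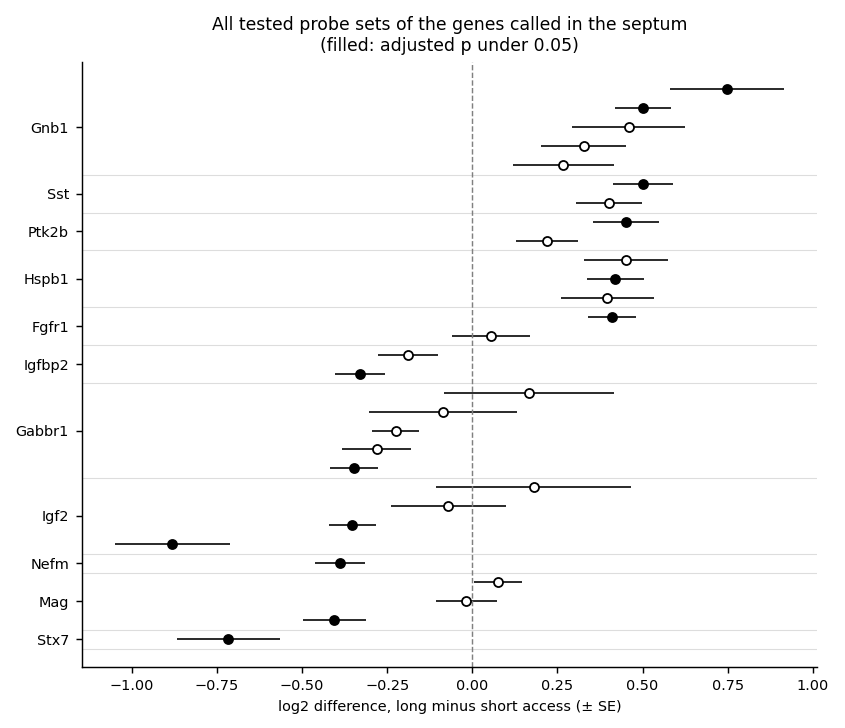
Log2 difference of long minus short access (horizontal axis, ± SE) for all 30 tested probe sets of the 11 named genes that passed, grouped by gene. Filled points passed at an adjusted p under 0.05 (13), open points did not (17); of the open ones 14 lie on the same side of 0 as the filled point of their gene and 3 do not, 1 each of Gabbr1, Igf2 and Mag.

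The position of the no access arrays differed among the 15 probe sets. No access lay between the cocaine groups for 5 probe sets, above both for 8 and below both for 2, and it was nearer to long access for 6 and nearer to short access for 9. Long access differed from no access for 7 of the 15, higher for Gnb1 (first probe set) and Fgfr1 and lower for Igf2 (dimmer probe set, by -1.14), Igfbp2, Gabbr1, Mag and 1 probe set with no symbol, where 17 of 736 (2.31%) passed over all probe sets, 0.951% higher and 1.36% lower. Short access differed from no access for 5 of the 15, Sst, Ptk2b, Gnb1 (second probe set), Stx7 and Fgfr1, where 14 of 736 (1.9%) passed, 0.408% higher and 1.49% lower. All 3 contrasts share arrays, so these counts are not independent of each other.

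Genes just short of the threshold were on both sides. The potassium channel Kcnj10, which astrocytes use to take up potassium, was at 9.83, 10.09 and 9.92 with long access and 9.52, 9.60 and 9.50 with short access (0.41 ± 0.10, adjusted p = 0.0547). The cannabinoid receptor Cnr1 was at 8.39, 8.71 and 8.48 with long access and 8.97, 9.11 and 8.98 with short access (-0.49 ± 0.12, adjusted p = 0.0547). The potassium channel Kcnc1, which serves fast firing, was at -0.47 ± 0.12 (adjusted p = 0.0633). The adhesion molecule Icam1 (0.62 ± 0.18), the muscarinic receptor Chrm3 (-0.39 ± 0.11) and the calmodulin-binding Nrgn (-0.27 ± 0.08) followed at an adjusted p of 0.129, and another probe set of Nrgn was at 0.04. The chemokine Cx3cl1 was at 0.40 ± 0.11 by 1 probe set and at -0.25 by another, so its probe sets disagree. The largest difference of any named gene was that of the chemokine receptor Cxcr1, at 5.25, 6.53 and 6.82 with long access and 7.62, 7.47 and 7.32 with short access (-1.27 ± 0.37, adjusted p = 0.132), where long access array 1 lay near the floor. Cxcr1 was named for that size after its values were seen.

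The remaining groups of genes had 0 members that passed. Of 19 potassium channel genes 6 had an unadjusted p under 0.05 (14.1% of all genes did), among them Kcnj10, Kcnc1, Kcnd3 (-0.42 ± 0.14) and Kcnc4 (-0.53 ± 0.21), and the median was -0.05. Of 19 glutamate receptor genes 2 had one, with the AMPA receptor subunit Gria1 at -0.30 ± 0.10 and the metabotropic Grm4 at -0.40 ± 0.16. The immediate early gene Fos, a marker of recent neuronal activity, stood at 9.32, 9.42 and 9.51 with long access and 9.13, 9.27 and 9.22 with short access (0.21 ± 0.09, adjusted p = 0.303), and 7 of 11 activity-induced genes lay above 0. Medians were 0.11 for 14 monoamine genes, 0.04 for 6 acetylcholine receptor genes, -0.10 for 18 postsynaptic genes and -0.11 for 14 sodium and calcium channel genes. The cholinergic markers were at -0.26 ± 0.10 (Slc18a3, adjusted p = 0.232) and 0.11 ± 0.09 (Ngfr).

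Of 8 astrocyte markers 0 passed. The exact permutation test of their list could not pass, as 3 arrays per group cannot go below p = 0.1. The summed signal of the 8 was 57131 to 60691 with long access and 51262 to 55524 with short access. Of the 8 markers, 7 lay above 0, with a median of 0.11. The calcium-binding S100b stood at 13.87, 13.73 and 13.75 with long access and 13.57, 13.56 and 13.49 with short access (0.25 ± 0.07, adjusted p = 0.129). The glutamate transporter Slc1a3 was at 0.14 by its brightest probe set, 0.22 by another and -0.14 by a further one, and the gap junction gene Gja1 was the 1 marker below 0, at -0.15 ± 0.08. Their mean log2 signal was 11.75 ± 0.04 with long access and 11.63 ± 0.03 with short access (exact p = 0.1, 0.25 after adjustment), and the part of this list's level in the 15 differences was not tested. Septal neuron markers averaged 10.86 ± 0.03 with long access and 10.78 ± 0.04 with short access (exact p = 0.1, 0.25 after adjustment), with Sst as the 1 of 5 that passed and a median of 0.04. That mean includes Sst, and the list was not compared without it. Of its other members Slc18a3 was at -0.26, Ngfr at 0.11 and Slc32a1 at 0.04, and 3 of 5 lay above 0 with Sst counted. Among 5 microglial and immune markers the complement gene C3 was at -0.54 ± 0.17 and Tspo at 0.45 ± 0.19, with a median of -0.13. Medians were 0.25 for 5 striatal, -0.06 for 8 cortical and hippocampal, 0.18 for 3 hypothalamic and 0.01 for 6 oligodendrocyte markers, and the groups overlapped in the mean of each of these lists.

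**Figure D4:**
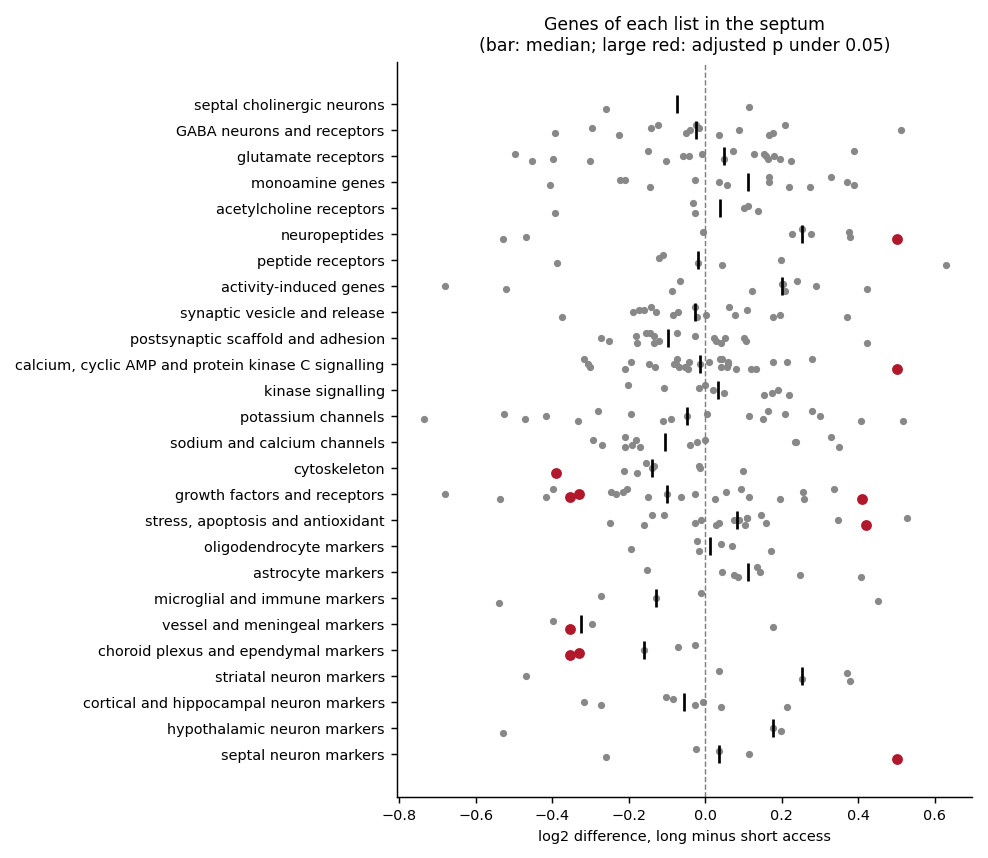
Log2 difference of long minus short access (horizontal axis) for the tested genes of 26 lists, each gene by its brightest probe set. Grey points are genes that did not pass, large red points those that did, and black bars list medians; neuropeptides have a median of 0.25 and cytoskeletal genes one of -0.14.

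Whether the septal differences stood apart from those in the other 5 regions was tested in 1 fit of all 63 arrays, and 0 of 858 probe sets passed (limma), with 29 (3.38%) at an unadjusted p under 0.05. Sst came closest. Long access exceeded short access in the septum (11.29 ± 0.16 against 10.78 ± 0.05, SD, n = 3 each), while in every other region long access lay below short access. The nucleus accumbens was at -0.36, the amygdala at -0.40, the lateral hypothalamus at -0.45, the ventral tegmental area at -0.29 and the medial prefrontal cortex at -0.22, none of which passed on its own. The septum minus the mean of the other 5 was 0.85 ± 0.19 (adjusted p = 0.0548), with a range of 0.0297 to 0.303 over 11 alternatives, of which 1 passed, that without cross-hybridising probe sets. The second Sst probe set differed from the other regions by 0.46 ± 0.20 (adjusted p = 0.998). Next came the decarboxylase Ddc (0.66) and the dimmer probe set of Tac1 (-0.70), both at an adjusted p of 0.998. Against the lateral hypothalamus alone 0 passed, with Sst at 0.95 ± 0.24 (adjusted p = 0.175), the potassium channel Kcnc4 at -1.39 (adjusted p = 0.322) and the synaptic vesicle protein Syp at -0.43 (adjusted p = 0.419).

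Fgfr1, Ptk2b and the second Gnb1 probe set also passed in another region in that fit (limma). The share of all probe sets that passed in those regions is not given here. Fgfr1 was higher with long than with short access in the lateral hypothalamus (10.22 ± 0.10 against 9.59 ± 0.18, SD, n = 4 each, adjusted p = 0.0355). Ptk2b was higher there by 1.20 (adjusted p = 0.00511), where short access lay near the floor at 5.37. The second Gnb1 probe set was higher in the nucleus accumbens (8.02 ± 0.35 with long access and 6.89 ± 0.37 with short access, adjusted p = 0.00177). It had the same sign in all 5 other regions. In the lateral hypothalamus 5 of the 15 had the same sign as in the septum and 10 the opposite one, while 54.9% of all 736 probe sets had the same sign. The 10 were Sst (-0.45), the first Gnb1 probe set (-0.07), Hspb1 (-0.01), Igf2 (0.69 and 0.13), Igfbp2 (0.34), Gabbr1 (0.23), Stx7 (0.22) and both probe sets with no symbol (0.19 and 0.05), none of which passed there. With the spread of all 63 arrays in place of that of the septum, 0 of the 15 passed in the septum. Of the 858 probe sets tested, 37 had an unadjusted p under 0.05, beside 15.6% of 736 in the fit of the septum arrays. The fit of all 63 arrays had no term for the replicate number, and its SE for the Gabbr1 probe set was 0.59, against 0.07 in the septum fit. In the medial prefrontal cortex this probe set stood at 7.33, 7.09 and 7.57 in replicate 3 with no, short and long access. Replicate 1 stood there at 10.41, 10.19 and 10.03. In the amygdala the lowest arrays of this probe set did not share a number. They were replicate 3 with no access (8.64), replicate 4 with short access (8.72) and replicate 2 with long access (9.89). The part of the replicate number in the results of that fit was not tested.

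**Figure D5:**
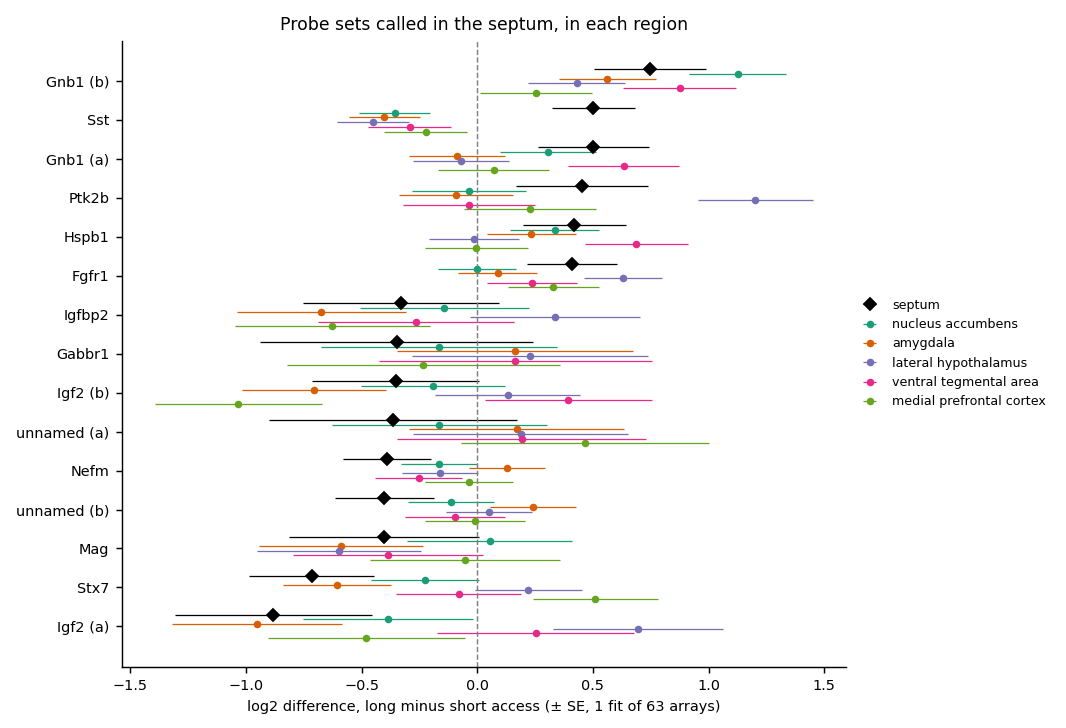
Log2 difference of long minus short access (horizontal axis, ± SE of 1 fit of 63 arrays) in each of 6 regions for the 15 probe sets that passed in the septum. Black diamonds are the septum and coloured points the other regions; for Sst the septum lies at 0.50 and all 5 others lie below 0.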

How the data were processed

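The deposited values are signal intensity per probe set on Affymetrix Rat Neurobiology U34 arrays. MAS5 made them, per the submitters' processing notes. The version, scaling target and detection calls are not given in the sources used here. As deposited, the 2% trimmed mean lay between 250.8 and 251.3 on all 63 arrays, and 0 pairs of arrays were identical. Arrays carry no counts or depth.

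Of 1322 probe sets, 59 controls were left out of the tests. Of the other 1263, 1137 had 1 gene symbol, 8 several and 118 none in the platform annotation; 1132 were found by Entrez identifier in RefSeq, which changed 0 symbols. No per-sample column was left unused.

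Signals were multiplied so that the trimmed mean of every array was 500, floored at 32 and taken to log2. Probe sets with a mean over the 9 septum arrays of at least 100 were tested. Long, short and no access were fitted together with limma 3.58.1 (lmFit and eBayes, trend on; R 4.3.3), and p was adjusted over 736 probe sets by Benjamini-Hochberg, with a threshold of 0.05. The differences between regions and the check of the label came from 1 fit of 63 arrays in 18 groups. The fit of the septum arrays was tested on simulated data. Measures of whole arrays were set against each other by two-sided exact permutation tests. A fold change is the antilog of a difference between mean log2 signals, and is understated for dim probe sets.

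The rule for named genes took up to 15 rises and 15 falls past the threshold, filled to 10 in each direction by the smallest p, and up to 4 members with the smallest p of each of 26 lists. For the differences between regions it took the 3 smallest p where none passed, and for the label check the region markers and the 8 largest rises. A gene counts in a list by its brightest probe set. The comparison and the lists were chosen with earlier results of these data known. The replicate numbers were not taken to pair the arrays.

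The alternatives changed the scaling (as deposited, or quantile), the floor, the filter (none, or a mean of 200), the trend, the array weights, the probe sets (without those that cross-hybridise), the arrays fitted (6, all 63, or each left out in turn) and the model (replicate block, or 1 of 2 covariates), and added a 1.5-fold limit.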

Additional observations from a re-analysis of the deposited data

How the results depend on the processing

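All 15 probe sets that passed between long and short access kept their sign in every alternative in which they were tested, and each passed in 5 to 14 of 21 or 22 alternatives. The count of 15 (6 higher, 9 lower) stayed within 1.5 times with quantile normalization (15), the scaling as deposited (14), no floor (15), array weights (18), a mean of 200 (19) and no filter (13, of which 8 were among the 15). It was 5 (2 higher, 3 lower) with no intensity trend, 3 (1 higher, 2 lower) without cross-hybridising probe sets, of which fewer were tested, 9 (5 of them lower) with the 6 arrays alone, 1 (0 higher, 1 lower) with a covariate for the spike-in signal, 0 (0 higher, 0 lower) with the actin ratio as a covariate and 0 (0 higher, 0 lower) in 1 fit of all 63 arrays, and 3 (1 higher, 2 lower) were also at least 1.5-fold. The cause of these changes was not tested. Leaving out 1 array gave 0 to 13 (0 to 7 higher and 0 to 7 lower). With a replicate block the count was 20 (10 higher), and all 15 were among them. Arrays of the same number deviated together at r = 0.09 to 0.14 between long and short access, over 0.1 for 2 of 3 pairs. Over all 9 same-numbered pairs of septum arrays r was 0.06 to 0.15, over 0.1 for 5. The highest r of a pair with different numbers was 0.006. All 6 arrays of long and short access correlated best with their own number. This is a hint from the data and not from the design, so the numbers were not taken to pair the arrays.

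Long minus no access gave 17 probe sets, 27 with array weights, 5 without cross-hybridising probe sets, 29 with the replicate block, 8 with the spike-in covariate and 9 to 20 with 1 array left out (9 and 10 without long access array 2 or 3, and 11, 10 and 9 without no access array 1, 2 or 3). Short minus no access gave 14, then 8 with no intensity trend, 31 with array weights, 22 with the replicate block, 1 with the actin covariate and 7 to 15 with 1 array left out (7 and 8 without short access array 1 or 3, and 8 and 7 without no access array 1 or 2). The difference of the septum from the other 5 regions gave 0 probe sets and 1, Sst, without cross-hybridising probe sets. Of the 437 probe sets that set the septum apart from the other regions, 73 were at least 2-fold. Over all alternatives the 15 probe sets between long and short access gave 319 values, of which 149 passed and 170 did not. The named results that had not passed gave 1893 values, of which 12 passed. The median of all probe sets moved by under 0.1 between scalings (0.01 in the values reported, as deposited and after quantile normalization). The number of arrays, 3 per group, limits what the comparison can show.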
